A study of Mus musculus with 12 samples.

Results

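The 10 genes described here (Rxfp2, Cd6, Trbc2, H60b, Dmrt2, Fap, Mylk3, Myl4, Krt80 and Col28a1) were picked, out of 55421 in the count table, because they stood higher in prelimbic (PL) than in infralimbic (IL) libraries of mouse prefrontal cortex. The PL and IL libraries of both treatments entered that choice. The differences between the regions are therefore given as a description, with no test. All 10 genes passed the filter on low counts, which they could do through the PL libraries alone.

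The study sequenced polyA RNA from brain tissue of male C57BL/6 mice, wild type and 10 to 12 weeks old. Every mouse had been trained with 3 pairings of a tone and a foot shock of 0.7 mA, and tissue was taken 2 h after training. The Dex groups had received dexmedetomidine, a sedative agonist of alpha2 adrenergic receptors, by intraperitoneal injection at a dose of 40 µg per kg and a volume of 10 ml per kg. The saline groups had received an equal volume of normal saline. Each region was thus sampled under each treatment, with 3 libraries in each of the 4 groups. All 4 groups were trained, so none shows the untrained level. The labels do not say whether the libraries of a group came from separate mice or from pooled tissue, so a p-value here reflects only the spread among libraries, which may be technical. The extraction protocol names prelimbic tissue for every sample, whereas 6 titles name infralimbic cortex, and the titles were followed.

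The prelimbic and infralimbic areas lie one above the other in the medial wall of the mouse frontal cortex. In studies of learned fear, PL is known for its part in the expression of fear and IL for its part in extinction. Both are layered cortex without a classical layer 4, and their pyramidal neurons are grouped by layer and by target. Several of the 10 genes are best known outside the brain, from T cells, heart muscle, fibroblasts or epithelium.

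Library totals ran from 6853832 to 8847876 counts in PL and from 5419187 to 16530596 in IL. Levels are in CPM, counts divided by library size, with the sizes scaled by TMM, a method that aligns the bulk of the genes between libraries. On this scale 3 counts correspond to between 0.178 and 0.532 CPM, and the rarest of the genes had 106 counts in all 12 libraries together. On the first principal component of all genes, which held 35.8% of the variance, the PL libraries lay between 17.9 and 48.8 and the IL libraries between -38.4 and -29.3. PL saline 1, PL Dex 1 and PL Dex 2 lay nearer to IL, at 17.9 to 22.5, than the other 3 PL libraries, at 46.9 to 48.8. In bulk tissue, fewer cells of a type and less RNA per cell cannot be told apart.

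Across the 10 genes, the PL level was 4.38 times the IL level in saline mice and 4.87 times in Dex mice, as medians of the fold changes. On the log2 scale these medians were 2.13 and 2.29, beside medians of -0.02 and -0.01 over the 20015 genes tested. In the saline libraries 9 of the 10 genes had every PL value above every IL value, the exception being Col28a1. PL libraries stood above all IL libraries in this way for 20.1% of all genes tested. In the Dex libraries it was again 9 of 10, the exception being Rxfp2, beside 10.8% of all genes. With the treatments pooled, 8 of 10 genes had all 6 PL values above all 6 IL values, beside 5.18% of all genes. Nothing is read from these counts, since the same contrast chose the genes.

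**Figure D1:**
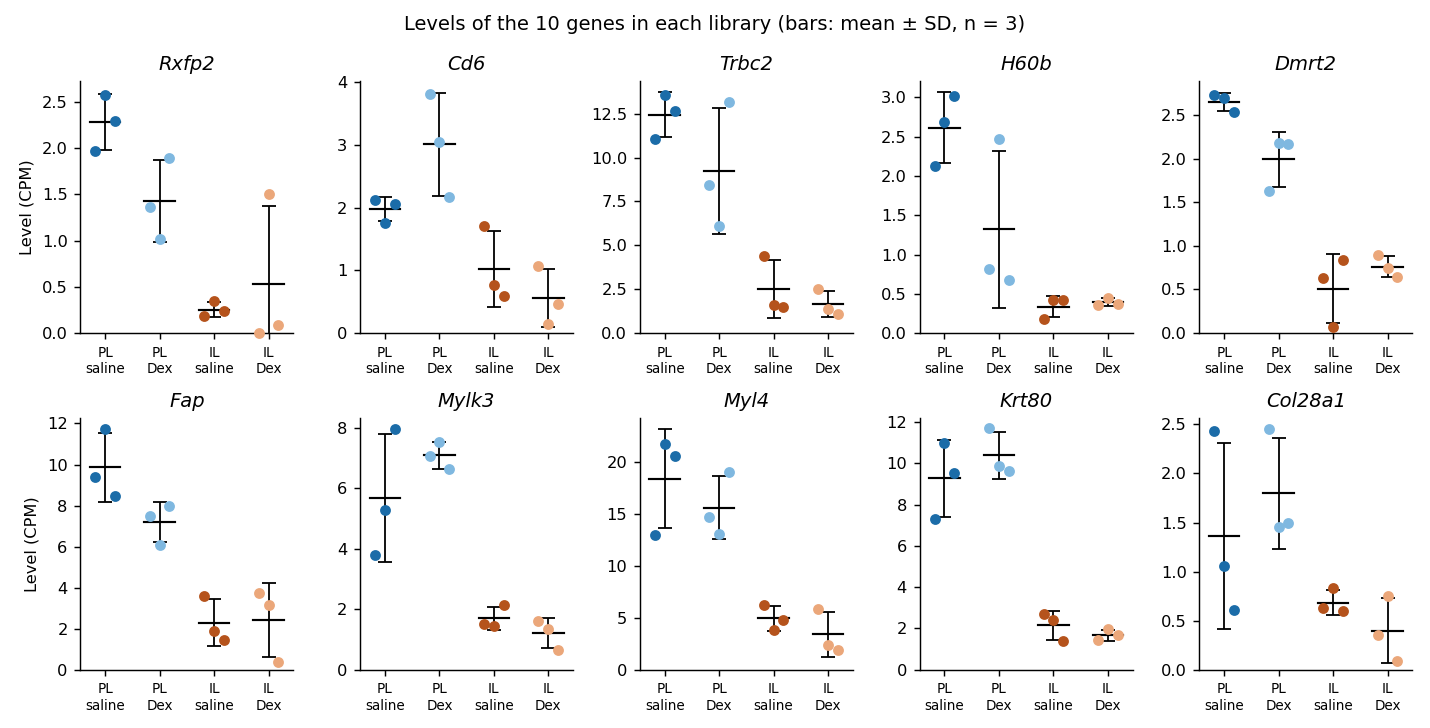
Level of each gene in CPM (vertical axis, linear, starting at 0 and scaled for each gene) in the 12 libraries, by group; points are libraries and bars the mean ± SD of 3. All PL points lie above all IL points for 8 genes, though only narrowly for Cd6. For Rxfp2 1 IL Dex library is high, and for Col28a1 1 PL saline library lies within the IL range.

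Rxfp2 encodes the G protein-coupled receptor for the hormone INSL3, best known for its part in the descent of the testis. It lies on chromosome 5 from 150018675 to 150082184 on the plus strand (ENSMUSG00000053368, build GRCm38). Its level was 1.97, 2.58 and 2.29 CPM in the PL saline libraries and 1.36, 1.02 and 1.90 CPM in the PL Dex libraries. In IL it was 0.18, 0.35 and 0.24 CPM with saline and 0.00, 1.501 and 0.09 CPM with Dex. All PL saline values thus exceeded all IL values, whereas IL Dex 2 exceeded 2 of the 3 PL Dex values. That library held 10 of the 11 IL Dex counts of the gene. The log2 difference of PL over IL was 3.08 (SE 0.680) in saline and 1.5 (SE 0.736) in Dex. Without IL Dex 2 the Dex value was 4.30, and without IL Dex 3 it was 0.84. In the saline contrast Rxfp2 ranked 2 from the top among the 20015 genes, and in the Dex contrast 103.

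The other receptor of relaxin peptides with a large ectodomain, Rxfp1, was far more abundant and stood on the same side. Its level was 47.5 ± 4.19 CPM in PL saline, 44.5 ± 2.50 in PL Dex, 15.4 ± 3.83 in IL saline and 16.8 ± 4.53 in IL Dex (SD, n = 3). Rxfp1 was higher in PL by 1.62 on the log2 scale in saline (SE 0.181, edgeR adjusted p = 1.3e-05) and by 1.39 in Dex (SE 0.187, edgeR adjusted p = 0.000118). Of the 7 other genes of the relaxin family listed, 2 passed the filter on low counts, Rxfp1 and Rxfp3, and Rxfp1 alone passed the test. At an unadjusted p under 0.05 in edgeR, Rxfp3 was lower in PL in Dex, while in saline 0 were lower. Insl3, the ligand of Rxfp2, had no more than 2 counts in any group.

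Cd6 encodes a scavenger-type receptor of T cells that binds the adhesion molecule ALCAM. The gene lies on the minus strand of chromosome 19, from 10789341 to 10830058 (ENSMUSG00000024670). PL saline libraries held 2.13, 1.76 and 2.05 CPM and PL Dex libraries 3.81, 3.05 and 2.17 CPM. IL saline libraries held 1.71, 0.76 and 0.60 CPM and IL Dex libraries 1.07, 0.15 and 0.46 CPM. No IL value reached a PL value, but IL saline 1 came within a factor of 1.03 of the lowest PL value. The PL over IL difference on the log2 scale was 0.99 (SE 0.479) in saline and 2.48 (SE 0.554) in Dex, the latter 3.12 without IL Dex 1. Alcam, which codes for its binding partner, was at 274 ± 44.4 CPM in PL saline and 252 ± 20.4 in IL saline (SD, n = 3) and passed the test in neither region comparison.

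Trbc2 encodes a constant region of the T cell receptor beta chain. It spans 41546730 to 41548352 on the plus strand of chromosome 6 (ENSMUSG00000076498). PL saline libraries gave 11.1, 13.6 and 12.7 CPM and PL Dex libraries 8.43, 6.10 and 13.2 CPM. The IL values were 4.41, 1.59 and 1.49 CPM in saline and 2.49, 1.35 and 1.11 CPM in Dex. The lowest PL library was 1.38 times the highest IL library. PL exceeded IL by 2.37 (SE 0.364) and 2.56 (SE 0.426) on the log2 scale in saline and Dex. Without IL saline 1 the saline value was 3.01. Per length, Trbc2 had the highest level of the 10 genes in PL saline, at 17.99 RPKM (a level scaled by exon length and library size), beside 3.96 for Myl4 and 0.25 for Cd6. Trbc1, a near-identical copy, stood at 1.25 ± 0.648 CPM in PL saline and 0.20 ± 0.296 in IL saline (SD, n = 3), and reads could be split between the copies, so the level of either is uncertain.

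H60b encodes a ligand of NKG2D, an activating receptor of natural killer and T cells. The gene covers 22158586 to 22288849 on the plus strand of chromosome 10 (ENSMUSG00000075297). Its level was 2.13, 2.69 and 3.02 CPM in PL saline and 0.82, 2.47 and 0.68 CPM in PL Dex. IL libraries held 0.18, 0.42 and 0.42 CPM with saline and 0.36, 0.45 and 0.37 CPM with Dex. PL Dex was split, with replicate 2 at the level of PL saline and the other 2 libraries nearer to IL. The region difference was 2.86 (SE 0.526) on the log2 scale in saline and 1.71 (SE 0.630) in Dex. Without PL saline 1, PL Dex 1 and PL Dex 2, which left PL Dex 3 alone in its group, the Dex difference was 0.79. Leaving out only PL Dex 2 gave 0.92. H60b belongs to a family of similar genes, and it shares 133 exon bases with Raet1e, which had 0 counts, so its count is uncertain. None of the 6 other NKG2D ligand and receptor genes listed passed the filter on low counts.

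Other T cell genes were read beside Cd6 and Trbc2. The summed level of 14 T cell markers was 6.64 to 14.3 CPM in the PL libraries and 16.4 to 26.4 CPM in the IL libraries. Most of the IL sum came from Cd4, a co-receptor, at 11.05 ± 1.22 CPM in IL saline and 0.978 ± 0.897 in PL saline (SD, n = 3). Which cells held the Cd4 RNA was not tested. Without Cd4 the sum was 7.61 to 12.3 CPM in PL saline and 5.85 to 6.72 in IL saline, and 5.15 to 8.56 in PL Dex and 5.17 to 8.39 in IL Dex. The order of the regions thus turns with Cd4 in saline, and the ranges overlap in Dex. Of the 14 markers 4 passed the filter on low counts, and by edgeR Cd4 alone passed the test, lower in PL in saline (log2 -3.58, SE 0.524, adjusted p = 0.000405) and in Dex (log2 -2.53, SE 0.458, adjusted p = 0.00305). Cd3e, which encodes a defining subunit of the T cell receptor complex, had 3 counts in PL saline, 0 in PL Dex, 2 in IL saline and 1 in IL Dex. Cd2, a T cell adhesion receptor, was at 0 in all 6 PL libraries. Cd28, a co-stimulatory receptor, stood the other way, at 1.16 ± 0.091 CPM in PL saline and 0.79 ± 0.451 in PL Dex, against 0.16 ± 0.275 in IL saline and 0.35 ± 0.221 in IL Dex (SD, n = 3). It did not pass the filter on low counts for edgeR, and DESeq2 called it higher in PL in saline (log2 2.75, SE 0.978, adjusted p = 0.0317). Trbc1 levels, given with those of Trbc2 for saline, had the same order. In Dex, Trbc1 was at 0.56 ± 0.368 CPM in PL (SD, n = 3) and had 0 counts in IL. Trac, the constant region of the alpha chain, had a mean of 0.37 to 0.65 CPM in the 4 groups. The part of T cells in the levels of Cd6 and Trbc2 was not tested.

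Dmrt2 encodes a transcription factor with a DM domain, known from the patterning of somites. It lies on chromosome 19 from 25672411 to 25678991 on the plus strand (ENSMUSG00000048138). The PL saline libraries held 2.73, 2.69 and 2.54 CPM, with a spread of 3.93% of the mean, the smallest of the 10 genes in that group. That spread rests on 18 to 23 counts per library, too few to read it as a steady level. PL Dex libraries held 1.63, 2.18 and 2.18 CPM. IL values were 0.63, 0.07 and 0.83 CPM in saline and 0.89, 0.75 and 0.65 CPM in Dex, all below every PL value. The log2 difference was 2.34 (SE 0.503) in saline and 1.40 (SE 0.546) in Dex, and the saline value was 2.98 without IL saline 3. Of the 6 other genes of the DMRT family listed, Dmrta2 alone passed the filter on low counts and did not pass the test in either region comparison, while Dmrt1 and Dmrt3 had 0 counts in every library.

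Fap encodes fibroblast activation protein, a serine protease of the cell surface related to DPP4. On chromosome 2 it occupies 62500943 to 62574075 on the minus strand (ENSMUSG00000000392). Its values were 9.41, 11.7 and 8.45 CPM in PL saline and 7.48, 6.10 and 8.00 CPM in PL Dex. In IL they were 3.60, 1.87 and 1.43 CPM with saline and 3.74, 3.15 and 0.37 CPM with Dex. The groups of the 2 regions did not overlap, and IL Dex 3 was far below the other IL Dex libraries. PL stood above IL by 2.14 (SE 0.450) in saline and 1.72 (SE 0.502) in Dex on the log2 scale. Without IL Dex 3 the Dex value was 1.07.

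Some relatives of Fap lay on the same side. Dpp4, its closest paralog, was at 10.5 ± 0.632 CPM in PL saline and 4.05 ± 0.473 in IL saline (SD, n = 3), a log2 difference of 1.38 (SE 0.266, edgeR adjusted p = 0.00142), and the Dex libraries gave 1.30 (SE 0.283, edgeR adjusted p = 0.00613). Dpp10, an auxiliary subunit of potassium channels, was higher in PL by 1.01 in saline and 0.80 in Dex. Of 7 relatives tested with edgeR, 3 were called higher in PL in saline (Dpp4, Dpp10 and Dpp8) and 2 in Dex (Dpp4 and Dpp10), and 0 lower. DESeq2 called the same genes and, in saline, Dpp6 lower (log2 -0.26, SE 0.091, adjusted p = 0.0289), which was also the 1 gene lower at an unadjusted p under 0.05 in edgeR. Over all genes the shares called higher in PL were 9.97% in saline and 3.8% in Dex. Among 8 fibroblast markers, 0 were higher in PL in either treatment by edgeR, and 1 was lower in saline.

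Mylk3 encodes the myosin light chain kinase of heart muscle, and Myl4 a myosin light chain of the atrium and of embryonic muscle. Mylk3 covers 85324303 to 85386345 on the minus strand of chromosome 8 (ENSMUSG00000031698). Its PL saline values were 3.80, 5.27 and 7.97 CPM and its PL Dex values 7.07, 7.55 and 6.64 CPM. IL libraries held 1.53, 1.45 and 2.14 CPM in saline and 1.60, 1.35 and 0.65 CPM in Dex. PL and IL were apart in both treatments, and the PL saline libraries had the largest SD of the 4 groups, 2.12 CPM. The log2 difference was 1.72 (SE 0.325) in saline and 2.65 (SE 0.375) in Dex, the largest of the 10 genes in Dex.

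Myl4 lies on chromosome 11 from 104550663 to 104595753 on the plus strand (ENSMUSG00000061086). It had the highest mean CPM of the 10 genes in all 4 groups, with 12.9, 21.7 and 20.5 CPM in PL saline and 14.7, 13.1 and 19.0 CPM in PL Dex. The IL libraries held 6.21, 3.80 and 4.82 CPM in saline and 5.88, 2.40 and 1.94 CPM in Dex. The lowest PL library was 2.08 times the highest IL library. PL exceeded IL by 1.91 (SE 0.289) and 2.29 (SE 0.331) on the log2 scale in saline and Dex.

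The genes of the contractile apparatus did not follow the pair. Of 13 other myosin light chain and kinase genes, 6 passed the filter on low counts and 0 passed the edgeR test in either region comparison, nor at an unadjusted p under 0.05 or by DESeq2. Of 11 heart muscle markers, 4 passed the filter, 0 were called higher in PL, and Myh7, a myosin heavy chain, was called lower in both treatments by edgeR. At an unadjusted p under 0.05 in edgeR, 0 were higher and 2 lower in saline, and 1 was higher and 1 lower in Dex. DESeq2 also called Myh6 lower in saline. Myh7 stood at 3.24 ± 1.94 CPM in PL saline and 13.0 ± 2.39 in IL saline (SD, n = 3). Myl7, the regulatory light chain of the atrium, had 1 count in PL saline and 4 in PL Dex.

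Krt80 encodes a type II keratin of epithelial cells. It spans 101347444 to 101370162 on the minus strand of chromosome 15 (ENSMUSG00000037185). PL saline libraries held 7.29, 11.01 and 9.54 CPM and PL Dex libraries 11.7, 9.87 and 9.62 CPM. IL libraries held 2.70, 2.42 and 1.37 CPM in saline and 1.43, 1.95 and 1.66 CPM in Dex. Krt80 was the most clearly separated of the 10 genes, with its lowest PL library at 2.70 times its highest IL library. Its log2 difference was 2.13 (SE 0.270) in saline and 2.62 (SE 0.301) in Dex, with the smallest SE of the 10 in both. It shares 263 exon bases with Gm35853 on the other strand, and the counting used no strand, so reads of the pair cannot be told apart there. Of 10 epithelial markers, 3 passed the filter on low counts and 0 passed the edgeR test in either direction, nor at an unadjusted p under 0.05 or by DESeq2.

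Col28a1 encodes a collagen with von Willebrand factor A domains, known from peripheral nerve. Its locus is 7997808 to 8192617 on the minus strand of chromosome 6 (ENSMUSG00000068794). Levels were 2.43, 1.05 and 0.60 CPM in PL saline and 2.45, 1.45 and 1.49 CPM in PL Dex. In IL they were 0.63, 0.83 and 0.60 CPM with saline and 0.36, 0.75 and 0.09 CPM with Dex. In saline PL replicate 3 lay within the IL range, so the groups overlapped, while in Dex they did not. The log2 difference was 0.93 (SE 0.569) in saline and 2.28 (SE 0.676) in Dex, and the gene ranked 462 from the top in saline and 20 in Dex. Both values moved with single libraries. Without PL saline 1 the saline value was 0.27, and the Dex value was 3.17 without IL Dex 2 and 1.65 without IL Dex 3.

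Other collagens with such domains mostly stood the other way. Of 7 tested, 1 was higher and 5 were lower in PL in saline, and 1 was higher and 1 lower in Dex. Over all genes 8.7% were called lower in PL in saline and 3.54% in Dex. Col12a1, a collagen that binds to fibrils, was the one higher in PL, at 70.7 ± 9.83 CPM in PL saline and 28.4 ± 4.91 in IL saline (SD, n = 3), with log2 differences of 1.32 in saline and 1.62 in Dex. Col6a5, which encodes a chain of collagen VI, was lower in PL by log2 values of -2.63 in saline and -2.39 in Dex.

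**Figure D2:**
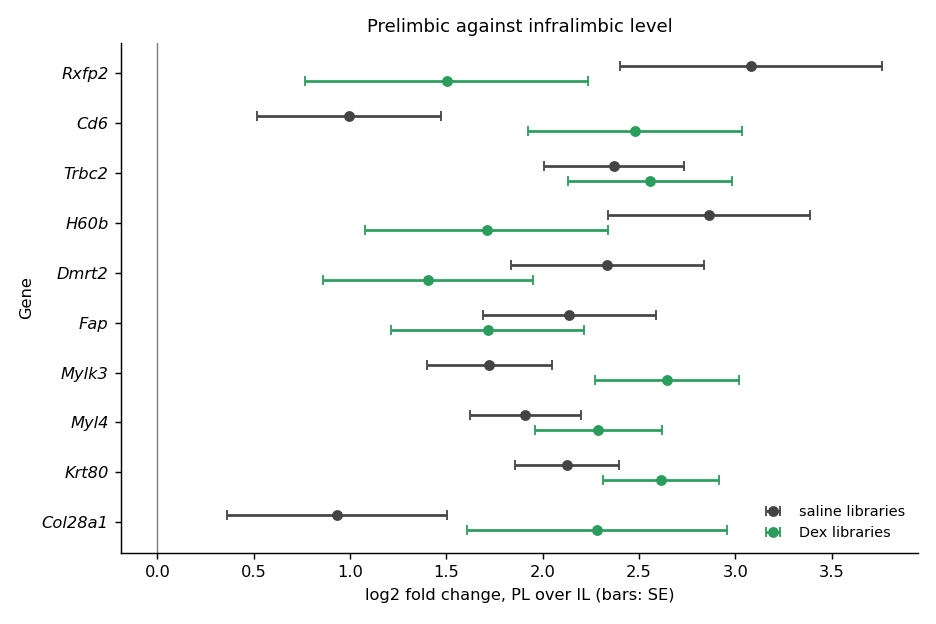
log2 fold change of PL over IL for each gene (horizontal axis; bars are the SE), in saline and in Dex libraries. All 20 values lie above 0, from 0.93 to 3.08 in saline and from 1.40 to 2.65 in Dex; the genes were chosen for this difference.

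The promoter table of RefSeq (build GRCm38.p6, 250 bases before and 50 after a gene's start) held windows for 5 of the 10 genes, with 2 windows for Mylk3. Both strands were searched for 6 short motifs. The TATA box was searched as TATAAA and the GC box of Sp1 factors as GGGCGG. The site of CCAAT-binding factors was searched by those letters and that of GATA factors as AGATAA. One form of the E-box of helix-loop-helix factors was searched as CAGCTG, and the cyclic AMP response element as TGACGTCA. None of these motifs contains another, and the CCAAT letters occur in 37.4% of all 32851 windows and AGATAA in 11.2%. The 3 windows with a match are printed to show where the matches lie, with matches on either strand in capitals. They are chr19:25672161-25672460 on the plus strand for Dmrt2, chr11:104550413-104550712 on the plus strand for Myl4 and chr8:85380992-85381291 on the minus strand for Mylk3.
Dmrt2: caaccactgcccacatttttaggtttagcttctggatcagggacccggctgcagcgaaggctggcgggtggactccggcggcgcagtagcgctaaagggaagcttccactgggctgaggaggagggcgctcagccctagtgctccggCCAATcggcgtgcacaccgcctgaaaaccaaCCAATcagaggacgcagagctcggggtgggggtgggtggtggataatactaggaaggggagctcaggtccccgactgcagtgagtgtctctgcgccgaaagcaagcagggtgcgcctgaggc
Myl4: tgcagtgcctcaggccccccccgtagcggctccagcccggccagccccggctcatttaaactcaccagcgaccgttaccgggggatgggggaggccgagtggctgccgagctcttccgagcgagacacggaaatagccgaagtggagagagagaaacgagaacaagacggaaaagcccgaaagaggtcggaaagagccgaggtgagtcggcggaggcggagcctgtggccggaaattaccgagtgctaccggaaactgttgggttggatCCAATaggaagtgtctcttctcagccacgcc
Mylk3: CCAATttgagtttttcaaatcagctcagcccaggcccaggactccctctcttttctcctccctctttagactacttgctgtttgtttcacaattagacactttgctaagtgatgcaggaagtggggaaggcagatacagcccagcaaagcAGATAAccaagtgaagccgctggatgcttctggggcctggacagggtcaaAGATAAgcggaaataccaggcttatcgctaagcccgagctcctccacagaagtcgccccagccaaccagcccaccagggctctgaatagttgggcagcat
Dmrt2 held 2 matches of CCAAT, Myl4 held 1, and Mylk3 held 1 of CCAAT and 2 of AGATAA. The windows of Rxfp2 and Col28a1 and the other window of Mylk3 held no match to any of the 6 motifs. The G and C content was 62.7% in the Dmrt2 window, 61.7% in that of Myl4 and 52.0% in that of Mylk3. A match is a run of letters and not a bound site.

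None of the 10 genes passed the test for Dex against saline in PL (edgeR's quasi-likelihood test, adjusted over 20015 genes), where 0.02% of all genes passed. At an unadjusted p under 0.05 the count was also 0 of 10, beside 13.9% of all genes, and DESeq2 called 0 of 10. The log2 changes ran from -1.0 to 0.61 with a median of -0.33, beside -0.0025 over all genes, and 4 were above 0. The furthest from 0 was H60b, at 2.61 ± 0.452 CPM in PL saline and 1.32 ± 0.996 in PL Dex (SD, n = 3), a log2 change of -1.0 (95% interval -2.01 to 0.01, edgeR adjusted p = 0.365). For Krt80 the change was 0.16 (95% interval -0.36 to 0.67), the narrowest interval of the 10. Cd6 gave 0.61 (95% interval -0.35 to 1.56, edgeR adjusted p = 0.554), with all 3 PL Dex values above all 3 PL saline values, as in 7.57% of all genes. Rxfp2, Dmrt2 and Fap had all PL Dex values below all PL saline values, as in 6.82% of all genes. The groups were thus apart for 4 of the 10 genes, beside 14.4% of all genes. A 2-fold change in one direction lay within the interval for 7 of the 10 genes. These PL libraries also entered the choice of the genes.

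In IL, 0 of the 10 genes passed the same test, where 0.0% of all genes passed, and 0 of 10 had an unadjusted p under 0.05, beside 1.06% of all genes. DESeq2 called 0 of 10 there too. The Dex and saline groups were apart in IL for 0 of the 10 genes, beside 7.78% of all genes. The median log2 change was -0.47, and 3 of 10 changes were above 0. Myl4 had the smallest unadjusted p of the 10 in IL, with 4.94 ± 1.21 CPM in saline and 3.41 ± 2.15 in Dex (SD, n = 3) and a log2 change of -0.62 (95% interval -1.34 to 0.10). The intervals were wider in IL, where the levels were lower. For Rxfp2 the change was 0.91 with an interval of -0.88 to 2.69, and without IL Dex 2 it was -1.89.

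**Figure D3:**
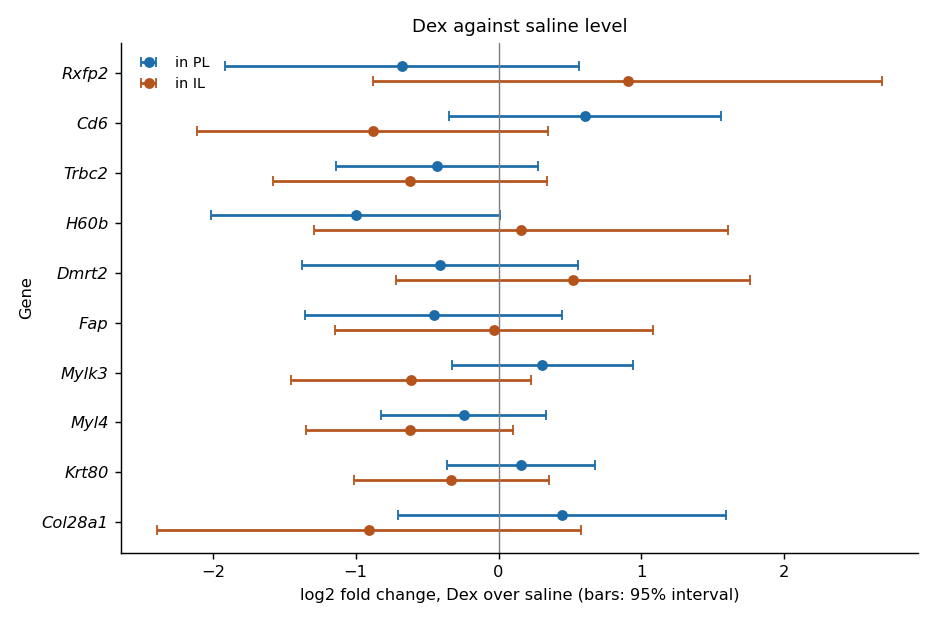
log2 fold change of Dex over saline for each gene (horizontal axis; bars are the 95% interval), in PL and in IL. Every interval includes 0; the PL values run from -1.0 for H60b to 0.61 for Cd6.

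The difference of the Dex effects between the regions, tested as an interaction, passed the threshold for 0 of the 10 genes by edgeR and by DESeq2, beside 0.0% of all genes, and 0 of 10 had an unadjusted p under 0.05, beside 6.73%. Cd6 had the smallest p, with an interaction of 1.49 on the log2 scale (95% interval -0.07 to 3.04, edgeR adjusted p = 0.716). Rxfp2 gave -1.58 (95% interval -3.76 to 0.60), which turned to 1.22 without IL Dex 2. Set against each other by library number, Cd6 and Col28a1 were higher with Dex in every PL pair and lower in every IL pair, although the first PL pair of Col28a1 was nearly equal. Such opposite pairs were seen in 3.5% of all genes. Pairing by number is weak in PL, where deviations of same-numbered saline and Dex libraries correlated at 0.0141 to 0.126.

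The 10 genes did not move as a block within groups. Over deviations from the group means, the 45 gene pairs had a median Pearson correlation of 0.102 across the 12 libraries, and 25 pairs were above 0. Trbc2 and Myl4 were the pair most alike, at 0.776, and Rxfp2 and Cd6 the least, at -0.790. IL Dex 2 held 10 counts of Rxfp2 and 1 of Cd6. Trbc2, Fap, Mylk3 and Myl4, with 388 to 1053 counts each, gave pairs from 0.162 to 0.776. Their pairs with Krt80 ran from -0.103 to 0.296. Rxfp2, Cd6, H60b, Dmrt2 and Col28a1 had 106 to 163 counts each, so their correlations are limited by depth. With the group differences left in, the 45 pairs ran from 0.407 to 0.966. These correlations share libraries, depth and the choice of the genes and are given as a description.

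Trbc2 and Myl4 also shared an order among the PL libraries. Both were lower in PL saline 1, PL Dex 1 and PL Dex 2, at 6.10 to 11.1 CPM and 12.9 to 14.7 CPM, than in the other 3, at 12.7 to 13.6 CPM and 19.0 to 21.7 CPM. Those 3 libraries are the ones nearer to IL on the first principal component. Krt80 and Mylk3 did not follow that order, with Krt80 highest in PL Dex 1. Without PL saline 1, PL Dex 1 and PL Dex 2 the PL Dex group held PL Dex 3 alone, so its values rest on a single library. The Dex change of Trbc2 in PL was then 0.011 and that of Krt80 -0.085 on the log2 scale. The median region difference of the 10 genes was then 2.22 in saline and 2.02 in Dex.

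In IL, replicate 1 of the saline group had the highest level of its group for 5 genes, Cd6, Trbc2, Fap, Myl4 and Krt80. IL Dex 3 had the lowest of its group for 6, Trbc2, Dmrt2, Fap, Mylk3, Myl4 and Col28a1. The 10 genes together came to 7.38 CPM in that library, beside 13.8 and 17.8 CPM in the other IL Dex libraries and 52.8 to 74.0 CPM in PL.

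Markers of neighbouring tissue and of cortical neurons also differed between the regions. The summed level of 7 striatal neuron markers was 247 to 714 CPM in the PL libraries, highest in PL saline 1, and 1041 to 1599 CPM in the IL libraries. Of these, 0 were higher and 5 lower in PL in saline, and 0 and 4 in Dex, beside 18.7% and 7.34% of all genes called in either direction. All 3 septal markers were lower in PL in both treatments. The summed level of 7 markers of cortical glutamatergic neurons was 3545 to 4422 CPM in PL and 2724 to 3605 CPM in IL. These ranges met at their ends. The mean of the markers' log2 levels, each centred over the libraries, was 0.21 to 0.59 in PL and -0.65 to -0.24 in IL. On that measure the regions did not overlap. Of the 7 markers, 3 were higher in PL in saline and 4 in Dex, with median log2 differences of 0.53 and 0.60. Neurod6, a transcription factor of pyramidal neurons, was higher by 2.07 in saline and 1.70 in Dex. The part of this difference in tissue in the levels of the 10 genes was not tested.

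**Figure D4:**
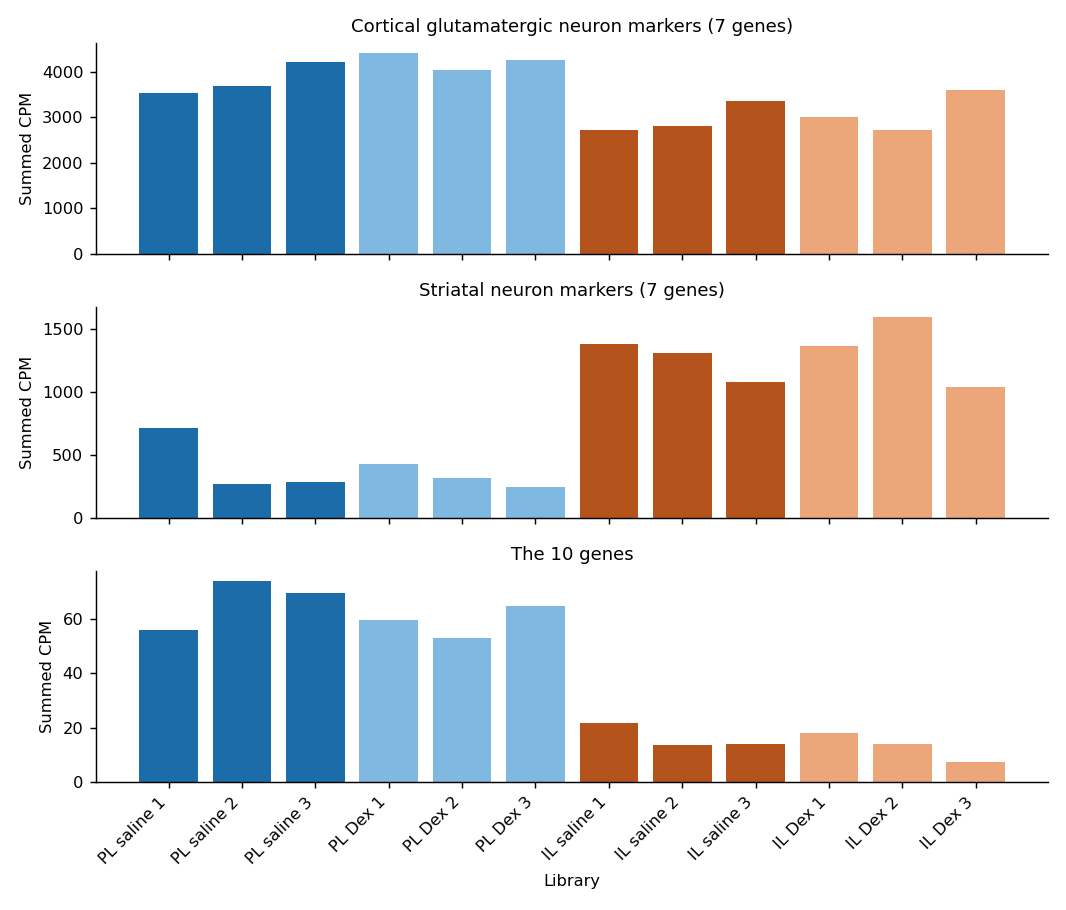
Summed CPM (vertical axes, starting at 0) in each of the 12 libraries for 7 cortical glutamatergic neuron markers, 7 striatal neuron markers and the 10 genes. Striatal markers reach 714 CPM in PL saline 1 and at least 1041 CPM in IL, while the 10 genes reach at least 52.8 CPM in PL and at most 21.8 CPM in IL.

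Layer markers were split between the directions or moved in part of their lists, by edgeR. Among the 7 tested markers of layer 5 neurons that project out of the cortex, 3 were higher and 2 lower in PL in saline, and 2 were higher and 2 lower in Dex. Over all genes 9.97% were called higher and 8.7% lower in saline, and 3.8% and 3.54% in Dex. Fezf2, a factor that specifies these neurons, was higher in PL by 1.22 in saline, while Bcl11b, a factor that acts downstream of it, gave -0.67. Of 7 markers of layer 4 and layer 5 intratelencephalic neurons, 2 were higher and 1 was lower in both treatments. Deptor, an inhibitor of mTOR, was higher by 1.41 in saline and 1.2 in Dex, and Scnn1a, a sodium channel subunit, was lower, at -2.30 and -2.35. Of 6 markers of layer 6 neurons that project to the thalamus, 2 were higher in saline and 1 in Dex, with Rprm higher by 1.19 and 1.22. Of 8 markers of layer 2/3 neurons, 1 was higher and 1 lower in saline, and 2 were higher and 1 lower in Dex. Of 4 layer 6b markers, 1 was higher and 0 were lower in both treatments. Of 4 markers of near-projecting layer 5 neurons, 0 were called in saline, and 1 was higher and 0 lower in Dex.

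Markers of GABA neurons differed between the regions as well. Their summed level over 6 genes was 451 to 738 CPM in PL and 755 to 1099 CPM in IL, with no overlap. The mean of their log2 levels, each centred over the libraries, did overlap, at -0.47 to 0.066 in PL and 0.034 to 0.23 in IL. By edgeR 1 was higher and 2 lower in PL in saline, and 1 higher and 3 lower in Dex. Slc32a1, the vesicular GABA transporter, was lower at -1.28 and -1.16, and Vip, a peptide of one interneuron class, was higher by 0.84 and 0.79. Of 5 astrocyte markers, 1 was lower in saline, Gfap at -1.0, and 0 were called in Dex by edgeR or DESeq2, with 2 at an unadjusted p under 0.05. The part of these cells in the levels of the 10 genes was not tested. Nor was the part of striatal tissue, whose markers were also lower in PL, in the levels of the GABA and layer markers. Markers of oligodendrocytes, microglia and endothelium gave 0 calls by edgeR and by DESeq2 in either region comparison, and at an unadjusted p under 0.05 they gave 4 in saline and 1 in Dex.

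The genes outside the set whose log2 levels were most like the mean of the 10, by Pearson correlation over 12 libraries among 14030 genes, were Cdh11 (0.982), Grm8 (0.981), Lsamp (0.980), Etl4 (0.980), Satb1 (0.979), Dst (0.978), Col12a1 (0.978) and Trpc6 (0.9745). In saline their log2 differences of PL over IL ran from 0.20 for Dst to 1.39 for Trpc6, all smaller than the median of 2.13 of the 10 genes. Over deviations from the group means, where the region difference is removed, a different set led: Cog5 (0.963), Ccdc138 (0.907), Scyl2 (0.902), Pcdhb20 (0.897) and Tgds (0.896).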

How the data were processed

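The 12 libraries have raw read counts for each gene, deposited by the authors without normalization. Per the file headers, featureCounts 2.0.1 counted read pairs over exons without regard to strand, using annotation release 98 of GRCm38. The submitters' processing notes also list HISAT2, SAMtools 1.8, bcl2fastq and Trim Galore and name the build mm39, but the deposited coordinates equal GRCm38. A further 12 count columns matched no sample and were not used.

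Counts were filtered with filterByExpr on the 4 groups, scaled by TMM (factors 0.935 to 1.05) and fitted with edgeR 4.0.16 in R 4.3.3 (robust quasi-likelihood, 1 mean per group, 8 residual degrees of freedom), which was tested on simulated data. P-values are two-sided and adjusted over 20015 genes by the Benjamini-Hochberg method, threshold 0.05. RPKM was computed from CPM and exon length.

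The named genes are the 10, the 8 genes most like them over libraries and the 5 over deviations, up to 3 genes past the threshold per list, and detected relatives. The 10 genes and all lists were chosen with earlier results of these data known. Replicate numbers equal the batch numbers in the labels. Same-numbered libraries correlated in their deviations at 0.299 to 0.347 between IL saline and IL Dex, and at 0.0141 to 0.126 between PL saline and PL Dex. Alternatives were RLE factors, no filter, DESeq2 1.42.0, a replicate block, a correction for GC content, fits of 2 groups, and leaving out libraries.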

Additional observations from a re-analysis of the deposited data

Results flagged for a closer look

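Cd6 and Col28a1 moved in opposite directions in the regions when Dex and saline libraries of the same number were set against each other. The pairing is weak in PL, where same-numbered libraries correlated in their deviations at 0.0141 to 0.126. Unpaired, the PL values of Col28a1 overlapped, at 0.60 to 2.43 CPM with saline and 1.45 to 2.45 with Dex. For Cd6 every PL pair was higher and every IL pair lower with Dex, and the interaction was 1.49 on the log2 scale (SE 0.746, edgeR adjusted p = 0.716). For Col28a1 the signs were the same, with an interaction of 1.35 (SE 0.899, edgeR adjusted p = 0.742), but the first PL pair was nearly equal, at 2.43 CPM with saline and 2.45 with Dex. Over the left-out libraries the interaction ran from 0.95 to 2.12 for Cd6, highest without IL Dex 1, and from 0.71 to 2.24 for Col28a1, lowest without IL Dex 3 and highest without IL Dex 2. Neither passed the test of the difference, and 3.5% of all genes showed such opposite pairs in this direction or the reverse.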

How the results depend on the processing

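The PL over IL value of the 10 genes kept its direction in all 397 recomputed values. Nothing is read from this, since the genes were chosen for that direction in the same libraries. Leaving out each library in turn, the median log2 difference ran from 1.91 to 2.39 in saline and from 1.8 to 2.42 in Dex. No drug or interaction value of the 10 genes passed the threshold in any of the 585 tried, and the smallest adjusted p was 0.220.

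Counts over all genes moved more. For Dex in PL edgeR called 4 genes; RLE factors and the fit of 2 groups gave 0, no filter 193, the GC correction 1, DESeq2 140, and leaving out each library 0 to 1484, the last without PL Dex 3. With the replicate block it was 3, and with the block and the GC correction 2. The block changed no call of the 10 genes. Without a filter, 3 genes were called for Dex in IL and 4 for the interaction, which ranged from 0 to 144 over the left-out libraries, 144 being without PL Dex 3. PL against IL in saline gave 1842 to 4649 genes over the left-out libraries, lowest without PL saline 2. In Dex it gave 783 to 1728, lowest without IL Dex 2, and 2354 with the block and the GC correction.

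Leaving out PL saline 1, PL Dex 1 and PL Dex 2, chosen after seeing the data, gave 1 gene for Dex in PL, 1 for the interaction and 2401 for PL against IL in Dex. The Dex change in PL turned to 0.011 for Trbc2 and -0.085 for Krt80. For Fap in IL, DESeq2 gave 0.028 in place of -0.032. Over the left-out libraries the Dex change in IL ran from -1.89 to 1.57 for Rxfp2, -0.98 to 0.018 for Trbc2, -0.090 to 0.33 for H60b and -0.53 to 0.62 for Fap. The interaction ran from -2.24 to 1.22 for Rxfp2, -0.45 to 0.55 for Trbc2 and -1.07 to 0.071 for Fap. The cause was not tested. With 106 to 163 counts in all, Rxfp2, Cd6, H60b, Dmrt2 and Col28a1 are limited by depth.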
